A study of Homo sapiens with 4 samples.

Results

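The HOXB13 binding sites around 7 cell cycle genes were described in LNCaP, a long-used cell line from prostate cancer that responds to androgen. The genes were CCND1, CDKN1A, UBE2C, CDC20, CDK1, CCNB1 and AURKA. A site counted for a gene when the summit of a peak lay within 50 kb of the gene's interval in the hg19 build. This gave 29 of the 68725 peaks in the list for GSK2879552 and 2 of the 3722 peaks in the list for vehicle. Peaks around rs10896449, a variant at 11q13 on the side of CCND1 towards MYEOV, were counted in the same way.

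HOXB13 was immunoprecipitated with its bound DNA and sequenced from cells labelled GSK2879552, which inhibits LSD1 (KDM1A), an enzyme that removes methyl groups from histones, and from cells labelled vehicle. The treatment text gives 50 µM GSK2879552 for 4 hours in RPMI1640 with 5% CSS, after maintenance in RPMI-1640 with 10% FBS. It is the same for all 4 samples, and vehicle was told from the inhibitor by title and description. Each treatment was 1 library run on 2 lanes, which count as technical replicates, with 1 peak list for both. No value therefore has an error between cultures, no test over samples was possible, and the intervals below cover counting error only.

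The mammalian cell cycle runs on cyclin-dependent kinases, which cyclins switch on and inhibitors hold back. Cyclin D1, the product of CCND1, acts at entry into the cycle, and p21, the product of CDKN1A, blocks the kinases, above all when p53 is active. CDK1 with cyclin B1, the product of CCNB1, drives entry into mitosis, and Aurora A, the product of AURKA, works at centrosomes and the spindle. CDC20 activates the anaphase-promoting complex, a ubiquitin ligase that ends mitosis, and UBE2C is the enzyme that loads ubiquitin for it. HOXB13 is a homeobox factor of the prostate that shares many of its sites with the androgen receptor, and LSD1 acts with that receptor as a coregulator.

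Promoter sequence is shown for 3 mitotic genes, because a HOXB13 peak covered the 5′ end of CDC20 while none lay over that of CDK1 or CCNB1. The sequences are from RefSeq, build GRCh38.p14, and run from 250 bases before to 50 after a transcription start. The promoter table matched 4 of the 7 genes, and CDK1 has 2 starts there, of which the downstream one is shown. The hg19 interval of CDK1 and its RefSeq gene are both 16522 bp long. The 5′ end used for CDK1 peak distances therefore probably matches the upstream start, which is not shown. All 3 sequences are on the plus strand, CDC20 at chr1:43358731-43359030, CDK1 at chr10:60778228-60778527 and CCNB1 at chr5:69166900-69167199. Capitals mark a CCAAT box or a cell cycle homology region (CHR), 2 promoter elements known from genes of mitosis.
CDC20: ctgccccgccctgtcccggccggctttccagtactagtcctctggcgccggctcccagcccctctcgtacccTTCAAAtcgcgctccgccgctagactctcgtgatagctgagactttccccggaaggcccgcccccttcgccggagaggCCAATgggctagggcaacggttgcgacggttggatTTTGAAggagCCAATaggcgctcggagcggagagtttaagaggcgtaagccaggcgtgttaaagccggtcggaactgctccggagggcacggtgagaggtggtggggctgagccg
CDK1: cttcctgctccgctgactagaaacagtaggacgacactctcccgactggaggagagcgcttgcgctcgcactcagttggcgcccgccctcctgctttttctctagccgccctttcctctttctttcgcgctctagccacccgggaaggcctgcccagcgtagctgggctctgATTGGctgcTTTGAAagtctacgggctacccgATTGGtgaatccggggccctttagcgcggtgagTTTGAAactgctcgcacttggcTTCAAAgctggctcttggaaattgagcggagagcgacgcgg
CCNB1: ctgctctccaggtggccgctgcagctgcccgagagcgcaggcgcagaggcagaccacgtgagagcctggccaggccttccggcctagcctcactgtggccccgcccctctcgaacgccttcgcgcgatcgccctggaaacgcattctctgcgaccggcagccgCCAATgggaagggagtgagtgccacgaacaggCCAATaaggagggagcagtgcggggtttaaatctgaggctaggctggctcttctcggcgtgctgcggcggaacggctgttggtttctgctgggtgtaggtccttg

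Motifs were searched on both strands. A CHR (TTTGAA or TTCGAA) was found 2 times in the CDC20 window, 3 times in that of CDK1 and 0 times in that of CCNB1, and 16.4% of the 35116 promoter windows in the table held one. CCAAT was found 2 times in each of the 3 windows, and 34.6% of all windows held it. The window of the other CDK1 start, not shown, held 1 CHR and 1 CCAAT. The letters of 2 known HOXB13 sites, CAATAAA and TCGTAAA, were in none of the 3 windows, nor in those of the other CDK1 start and CDKN1A. They were in 4.00% and 0.541% of all windows. CAATAAA can share bases with CCAAT. A match is a description of letters and not a bound site, and no match says only that these letters are not in the window.

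All 7 genes had at least 1 GSK2879552 peak within 50 kb, and 1 of them, CDK1, had vehicle peaks. CCND1 and CDK1 had 7 GSK2879552 peaks each, UBE2C and CDC20 had 4 each, AURKA had 3, and CDKN1A and CCNB1 had 2 each. The windows, 104 to 123 kb long, came to 0.784 Mb, so the density was 37.0 per Mb for GSK2879552 and 2.55 per Mb for vehicle. Over chromosomes 1 to 22, X and Y, cut into 30931 bins of 100 kb that include gaps of the assembly, the mean was 22.0 per Mb for GSK2879552 and 1.13 per Mb for vehicle. The median bin held 2 GSK2879552 peaks, the 95th percentile was 6, and 3.61% of bins held at least 7. Counts at CCND1 and CDK1 were thus above the 95th percentile of bins slightly shorter than their windows, while those at CDKN1A and CCNB1 equalled the median bin. Whether other genes have as many was not analysed here.

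**Figure D1:**
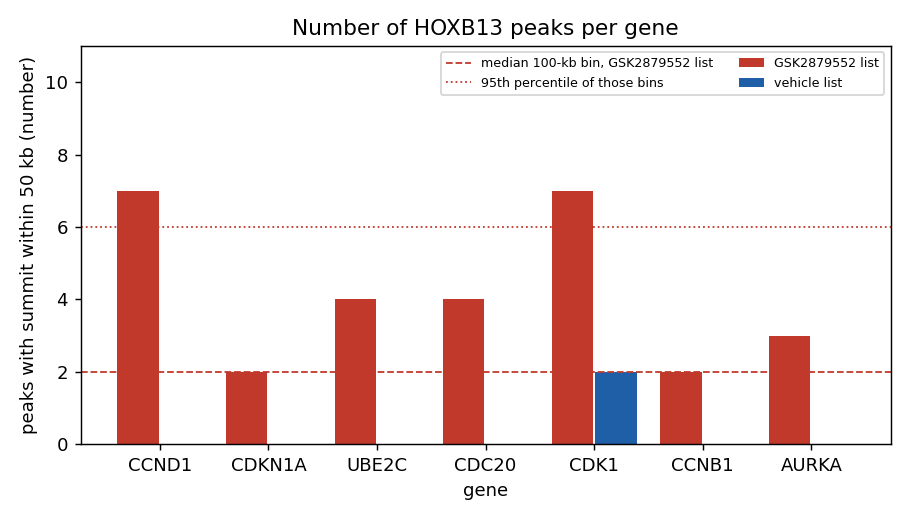
Number of peaks (vertical axis) with a summit within 50 kb of each gene (horizontal axis), with bars for the GSK2879552 list and the vehicle list. The dashed line at 2 and the dotted line at 6 are the median and the 95th percentile of 100 kb bins in the GSK2879552 list, and CCND1 and CDK1 with 7 peaks each stand above both.

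The fold enrichment is the authors' value for each peak, the pileup of tags at the summit over the local background, with 1 added to both. Near the 7 genes it ran between 2.998 and 8.70 for GSK2879552, with a median of 4.16 over 29 peaks, against a median of 4.22 over the 68049 peaks on the placed chromosomes. A fold enrichment of at least 5 was reached by 7 of the 29 peaks (24.1%), against 26.6% of the list. In the authors' deposited table a −log10 q of at least 5 was reached by 18 of the 29 (62.1%), against 54.8% of the list. Both vehicle peaks near these genes had a fold enrichment over 5, as did 80.6% of the vehicle list, where a lower background sets a higher bar. The GSK2879552 sites near these genes were thus ordinary in fold enrichment. Their median pileup was 21 tags, against 18 over the list. Their median local background was 1.51 times the genome-wide value of 2.79 tags, against 1.22 times over the list. The median width was 225 bp (139 to 572 bp), against a list median of 199 bp.

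Peaks of higher fold enrichment lay away from the starts of these genes. Of the 7 peaks of at least 5, 4 were upstream, 3 downstream and 0 inside a gene, at 17.3 to 71.5 kb from the 5′ end. They were near UBE2C, CDC20, CDK1 and AURKA. The 6 summits within 5 kb of a 5′ end, at CCND1, CDC20, CCNB1 and AURKA, had fold enrichments between 2.998 and 4.48. Of the whole list 26.6% reached 5, so 6 summits are too few to set these starts apart. Peaks near the starts of other genes were not analysed. Other genes lie beside these 7, and their hg19 positions were not used. By gene order in RefSeq, the protein-coding neighbours are SRSF3 and RAB44 for CDKN1A, DNTTIP1 and TNNC2 for UBE2C, and ANK3 and RHOBTB1 for CDK1. For CCNB1 they are SLC30A5 and CENPH, and for AURKA they are FAM210B and CSTF1. Neighbours of CDC20 are not given here, and its peaks, like those of the others, may lie at or beyond other genes.

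**Figure D2:**
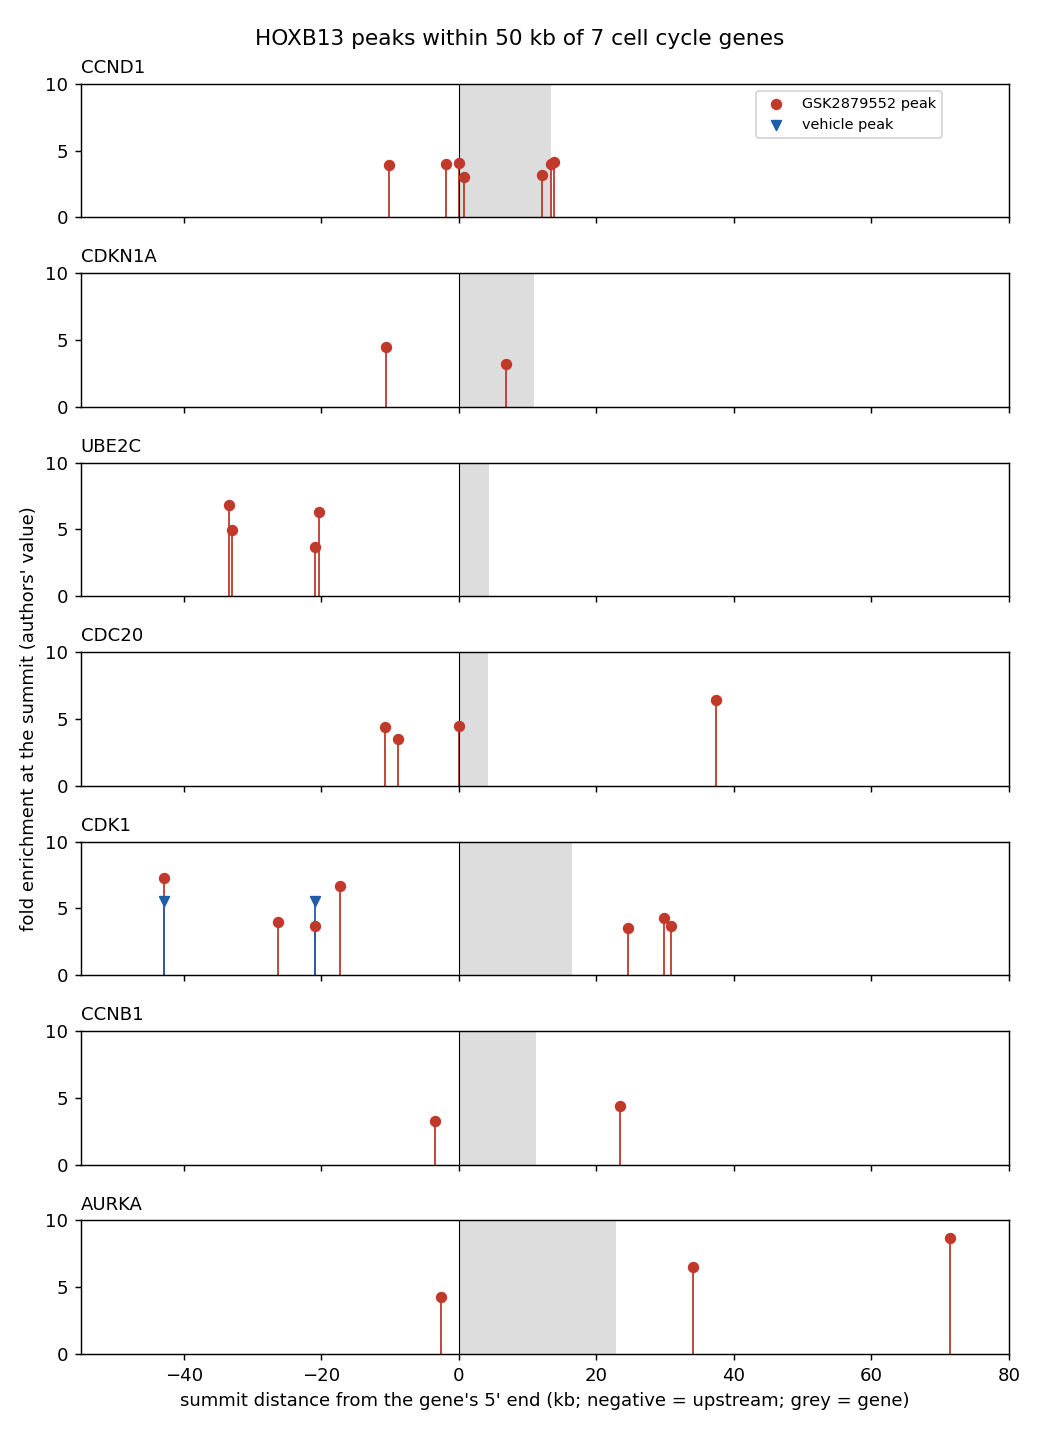
Summits of HOXB13 peaks by distance from each gene's 5′ end in kb (horizontal axis, upstream negative, gene in grey) and the authors' fold enrichment (vertical axis), with circles for the GSK2879552 list and triangles for the vehicle list. Peaks of CCND1 sit between 10.1 kb upstream and 0.437 kb past the gene and stay under 4.2, while UBE2C, CDC20, CDK1 and AURKA have peaks above 6 at 17.3 kb or more from the 5′ end.

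CCND1, the gene of cyclin D1, lies at chr11:69455873-69469242 and had most of its peaks at the ends of the gene. A peak at chr11:69455771-69455937 covered the 5′ end, with its summit 47 bp upstream, a pileup of 23 tags over a local background of 4.85, and a fold enrichment of 4.10. Another at chr11:69453886-69454241 had its summit 1867 bp upstream and a fold enrichment of 4.02, with a pileup of 22. The one at chr11:69456623-69456888 lay inside the gene, 820 bp from the 5′ end, and had the lowest fold enrichment of all 29 peaks, 2.998 with a pileup of 16.

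At the 3′ end of CCND1, 3 peaks followed one another. The one at chr11:69467962-69468142 had a fold enrichment of 3.18. The next at chr11:69469158-69469296 had its summit just inside the gene and a fold enrichment of 4.00. The last at chr11:69469586-69469828 had its summit 437 bp past the gene and a fold enrichment of 4.16. These 3 and the 3 around the 5′ end had local backgrounds of 1.61 to 1.74 times the genome-wide value of 2.79 tags. The median over the list was 1.22 times that value. The remaining peak, 10.1 kb upstream at chr11:69445573-69445835, stood at the genome-wide background with a fold enrichment of 3.95. All 7 CCND1 peaks thus lay below the median fold enrichment of the list. The vehicle list had no peak in the window, and its nearest summit was 414 kb away.

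The HOXB13 site of highest fold enrichment between rs10896449 and CCND1 lay nearer to the variant. This variant, at position 68994667 of chromosome 11, is a marker of inherited prostate cancer risk, and no genotype was used here. It lies 461 kb from the 5′ end of CCND1. Within 50 kb of it the GSK2879552 list had 5 peaks and the vehicle list 1. The GSK2879552 peak at chr11:69042055-69042395, 47.5 kb from the variant towards CCND1, had a fold enrichment of 17.3, rank 14 of 68049. The vehicle peak at chr11:69042105-69042276 had a fold enrichment of 7.78, and their summits were 23 bp apart.

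That site stood well above background in both libraries. The pileup was 89 tags over a local background of 4.21 with GSK2879552 and 12 tags over 0.670 with vehicle. Pileup over background, taking the background as fixed, was 21.1 (exact 95% Poisson interval 17.0 to 26.0) with GSK2879552 and 17.9 (9.25 to 31.3) with vehicle, so these overlapped although the deposited fold enrichments differ. The added 1 weighs more on the fold enrichment where the background is low.

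The peak nearest to the variant was an ordinary one. It lay 3990 bp away at chr11:68990544-68990814, on the side away from CCND1, with a fold enrichment of 4.09. The other 3 GSK2879552 peaks within 50 kb had fold enrichments of 3.66, 3.86 and 3.95. Between the variant and CCND1 there were 9 GSK2879552 peaks, 19.5 per Mb, and 1 vehicle peak. Of the 9, 4 were over 50 kb from both, between 224 and 263 kb from the variant, with fold enrichments of 6.45, 3.70, 5.01 and 4.48. A link between any of these sites and CCND1 was not measured.

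**Figure D3:**
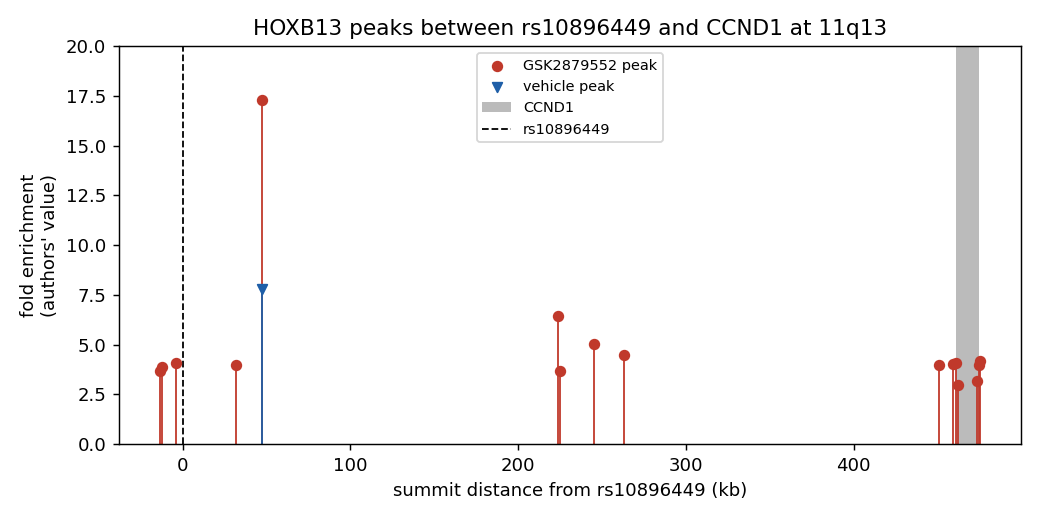
Summits of HOXB13 peaks by distance from rs10896449 in kb (horizontal axis) and the authors' fold enrichment (vertical axis), with circles for the GSK2879552 list, triangles for the vehicle list, the variant as a dashed line and CCND1 in grey. The site at 47.5 kb, 17.3 for GSK2879552 and 7.78 for vehicle, stands above all others, and those at CCND1 stay under 4.2.

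CDKN1A, the gene of the inhibitor p21, had 2 sites, as many as the median bin of 100 kb. It lies at chr6:36644237-36655116. A GSK2879552 peak 10.5 kb upstream at chr6:36633628-36633806 had a fold enrichment of 4.48, with a pileup of 16 at the genome-wide background. The other, at chr6:36650963-36651219, had its summit inside the gene, 6854 bp from the 5′ end, with 3.24 and a pileup of 14, and 93.4% of the list had a higher fold enrichment. Neither covered the 5′ end. The nearest vehicle summit was 2140 kb away.

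CDK1, the mitotic kinase, had the only vehicle peaks of the 7 windows. It lies at chr10:62538089-62554610. The farther shared site was 42.9 kb upstream. The GSK2879552 peak at chr10:62495055-62495265 had a fold enrichment of 7.25, with a pileup of 50 over 6.03. The vehicle peak at chr10:62495152-62495251 had 5.52, with a pileup of 9 over 0.810, and the summits were 45 bp apart. Pileup over background was 8.29 (6.15 to 10.9) with GSK2879552 and 11.1 (5.08 to 21.1) with vehicle, and the intervals overlap.

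The nearer shared site lay 20.9 kb upstream and was weak in the GSK2879552 list. The GSK2879552 peak at chr10:62517152-62517341 had a fold enrichment of 3.72, with a pileup of 19 over 4.38. The vehicle peak at chr10:62517182-62517302 had 5.56, with a pileup of 9 over 0.800, and the summits were 31 bp apart. Pileup over background was 4.34 (2.61 to 6.78) with GSK2879552 and 11.3 (5.14 to 21.4) with vehicle. The vehicle value is higher, and each value lies outside the other's interval. The intervals overlap in part, which does not show the values to be equal. Only sites high enough to be called enter from the vehicle list.

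CDK1 also had a taller GSK2879552 site without a vehicle peak. It was the one nearest to the gene's 5′ end, 17.3 kb upstream at chr10:62520689-62520937, with 34 tags at the summit and a fold enrichment of 6.70. The site 29.9 kb past the 5′ end, 13.4 kb beyond the gene at chr10:62567855-62568057, had 4.27. The other 3 GSK2879552 peaks had 3.50, 3.71 and 3.96. None of the 7 lay in the gene or at its start. All 7 had local backgrounds above the genome-wide value, 1.27 to 2.16 times it, against a median of 1.22 times over the list.

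CCNB1, the gene of cyclin B1, lies at chr5:68462837-68474070 and had 2 peaks, a weak one upstream and an ordinary one downstream. The GSK2879552 peak 3465 bp upstream at chr5:68459158-68459413 had a fold enrichment of 3.24 from 12 tags, the lowest of the 29. The other, 12.2 kb past the gene at chr5:68486102-68486317, had 4.36 and a pileup of 17. In the vehicle list the nearest summit was 347 kb away. The kinase and its cyclin thus had 7 and 2 GSK2879552 sites, none over a start.

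CDC20, the activator of the anaphase-promoting complex, had a peak over its start. It lies at chr1:43824626-43828874. The GSK2879552 peak at chr1:43824504-43824662 had its summit 38 bp upstream and ran from 122 bp before to 36 bp after the 5′ end. Its fold enrichment was 4.48, with a pileup of 16 at the genome-wide background, and its −log10 q in the authors' deposited table was 5.18. In the CDC20 sequence shown above, one CHR starts 65 bases and the CCAAT boxes 100 and 55 bases before the RefSeq start, all within that span if the starts coincide. The RefSeq gene is 26 bp shorter than the hg19 interval, so the placement may be off by as much.

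The tallest CDC20 site lay far downstream. This GSK2879552 peak, at chr1:43861813-43862384 and 33.1 kb past the gene, had 37 tags at its summit and a fold enrichment of 6.43, and its 572 bp made it the widest of the 29. The other 2, 10.7 and 8.84 kb upstream at chr1:43813844-43814037 and chr1:43815669-43815977, had 4.36 and 3.48. The nearest vehicle summit was 277 kb away.

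UBE2C, the ubiquitin-conjugating enzyme of the anaphase-promoting complex, had 4 sites, all upstream and in 2 pairs. It lies at chr20:44441255-44445596. The far pair had its summits 453 bp apart, 33.4 and 32.9 kb upstream. The GSK2879552 peak at chr20:44407695-44408017 had a fold enrichment of 6.85 from 39 tags, and that at chr20:44408141-44408421 had 4.96 from 28 tags. The near pair had its summits 656 bp apart, 20.9 and 20.3 kb upstream. The peak at chr20:44420233-44420375 had 3.71 from 15 tags, and that at chr20:44420841-44421110 had 6.32 from 27 tags. Each pair thus joined a taller and a lower peak. The nearest vehicle summit was 396 kb away.

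AURKA, the gene of Aurora A, lies on the minus strand at chr20:54944445-54967351 and had the highest fold enrichment of the 29 at the edge of its window. This GSK2879552 peak at chr20:54895761-54896074, 48.5 kb past the gene's 3′ end, had 8.70 and a pileup of 32 at the genome-wide background, and 2.24% of the list had a higher fold enrichment. The peak at chr20:54933210-54933425, 11.1 kb past the 3′ end, had 6.50 and a pileup of 26. The peak nearest the start, 2591 bp upstream of the 5′ end at chr20:54969858-54970006, on the side of CSTF1, had 4.27 and a pileup of 20. The nearest vehicle summit was 533 kb away. The peak at 48.5 kb was also the one just inside the limit of 50 kb, and those just outside it were 51.2 kb from CCND1 with 4.75 and 52.0 kb from CDK1 with 3.799.

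**Figure D4:**
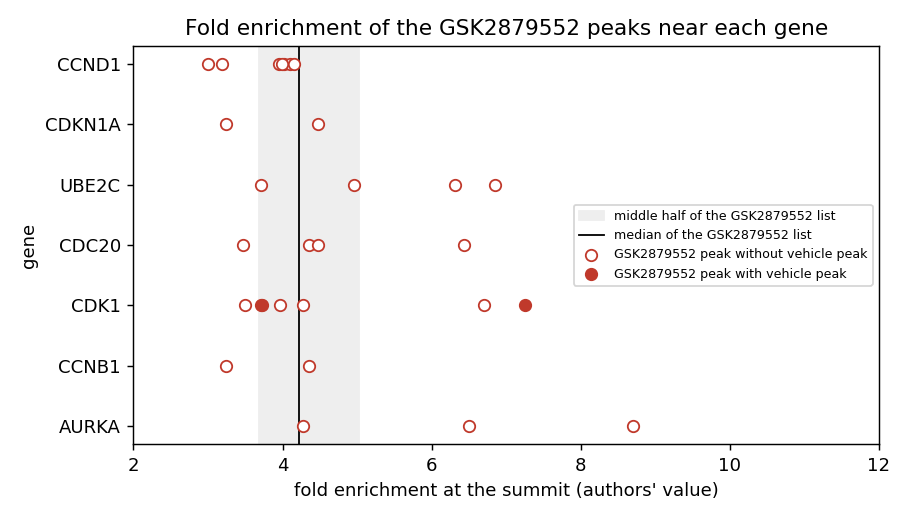
The authors' fold enrichment (horizontal axis) of each GSK2879552 peak within 50 kb of each gene (vertical axis), filled where a vehicle peak overlapped and open where none did, with the list's median of 4.22 as a line and its quartiles of 3.69 and 5.02 as the edges of the grey band. Filled points are at CDK1 alone, at 7.25 and 3.72, and the point at 3.72 adjoins an open one at 3.71.

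Of the 29 GSK2879552 peaks, 2 shared at least 1 bp with one called for vehicle. This is 6.90% (0.846 to 22.8, exact binomial 95% interval), while the share over the whole list was 4.59%. Both vehicle peaks in the windows had a GSK2879552 partner, against 91.2% of the vehicle list. Among GSK2879552 peaks of fold enrichment at least 5, 1 of 7 had a vehicle peak, against 13.7% of the list, and below 5 it was 1 of 22, against 1.27%. With so few sites, these shares cannot be told apart from those of the list.

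The libraries differed in background, which follows depth and the length to which tags were extended. The background across the genome came to 2.79 tags with GSK2879552 and 0.443 tags with vehicle, a ratio of 6.31. At the genome-wide background the lowest pileup called was 10 with GSK2879552 and 5 with vehicle. Vehicle pileups were worked out at the same fold enrichment, with the local background scaled by that ratio. For the 27 GSK2879552 sites without a vehicle peak they would be 3.78 to 11.6, with 7 under 5 and 20 reaching it. These pileups are high estimates, because the constant added in the fold enrichment weighs more at the lower vehicle background. At equal pileup over background all of them would be lower, and fewer than 20 sites would reach 5. The limit of 5 applies at the genome-wide background, where only 4 of the 29 sites stood. A raised local background asks for more tags, so fewer than the 20 might be called. For the 6 of fold enrichment at least 5 the pileups at equal fold enrichment would be 8.75 to 11.6. At the CDK1 sites with a vehicle peak the same calculation gave 13.2 for the farther and 5.30 for the nearer. The vehicle pileup was 9 tags at each. Equal fold enrichment in both libraries was assumed for these values and was not tested. At equal pileup over background the values for these CDK1 sites would be lower too. The counts of 7 and 20 thus cannot tell how many vehicle peaks the lower background would leave uncalled. Depth and treatment cannot be told apart.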

How the data were processed

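The 2 deposited peak lists, 1 per treatment for 2 lanes each, were used. MACS2 2.1.2, BWA 0.7.2 and SAMtools 0.1.18 appear in the submitters' processing notes, as do GRCh37 and hg19 as builds, with no roles. Aligner settings, any input and calling options were not given in the sources used here. The deposited fold enrichment (a ratio), −log10 p and −log10 q are the authors' values at each summit, and the deposited score equals 10 times the −log10 q without its decimals for every peak. The deposited summit offset in bp gave the summit. Coordinates count from 1.

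Gene intervals in hg19 and the variant's position came with the definition of the genes. Strands came from the promoter table or textbook knowledge. Whole pileups were solved from the fold enrichment and the Poisson −log10 p within 0.001, which succeeded for 100% of peaks in both lists. The solver and the overlap routine were tested on simulated data. The genome-wide background was the commonest local background. Comparisons used chromosomes 1 to 22, X and Y, with 68049 GSK2879552 and 3507 vehicle peaks. Peaks were named by a written rule: every vehicle peak, and every GSK2879552 peak of a gene with at most 6, otherwise the 3 of highest fold enrichment, the nearest to the 5′ end and those overlapping the gene. The remaining CCND1 peaks are given as well. The genes, thresholds and lists were chosen with earlier results of these data known. A further list of cell cycle genes was not analysed here, for want of an hg19 annotation. Python 3.11.15, pandas 2.3.3, scipy 1.17.1 and matplotlib 3.10.9 were used.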

Additional observations from a re-analysis of the deposited data

How the results depend on the processing

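The count of 29 GSK2879552 peaks became 49 with a window of 100 kb, 23 with 25 kb, 18 at a −log10 q of at least 5 and 7 at a fold enrichment of at least 5. The count of 2 vehicle peaks became 1 with 25 kb and 0 at a −log10 q of at least 5, where the share with a vehicle peak was 0%. With 25 kb around rs10896449 the GSK2879552 count was 3 and the vehicle count 0. The share otherwise ran between 3.45% and 14.3%, the median fold enrichment between 4.02 and 4.16, and the density between 33.0 and 53.1 per Mb. With 100 kb, CDK1 had 14 GSK2879552 peaks, CDC20 had 10 and CCNB1 had 5, and with 25 kb UBE2C had 2. Fewer or more peaks follow from each limit by its construction. Background was 2.79 tags with GSK2879552 and 0.443 with vehicle, and the part of depth in the vehicle counts was not tested. No paired analysis was possible because the 2 lanes of a treatment share 1 peak list.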
